A study of Mus musculus with 23 samples.

Results

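The aryl hydrocarbon receptor genes followed here are 7 mouse genes that were listed by name: the receptor Ahr, its repressor Ahrr, and 5 of its target genes, Cyp1a1, Cyp1a2, Cyp1b1, Tiparp and Aldh3a1. The array carries 12 probe sets that the platform annotation gives to one of these genes alone, of 45037 tested, and each gene is represented by its brightest probe set over all 23 arrays, as are all 18193 genes. All 7 genes were measured, and none was dropped by a filter on low values. The question was whether the receptor's transcriptional response moved with treatment, across 4 groups of livers.

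All 23 livers came from male mice of the strain hemizygous FVB/N-SULT1A1/2, which carry human SULT1A1 and SULT1A2 genes for sulfotransferases. The labels give the same age of 5 weeks for the 21 d and the 90 d groups, so it cannot be the age at which all livers were taken. The regulatory sequence that drives the transgenes is not given in the sources used here. Treated mice received 1-MIM-OH, 1-methoxy-3-indolylmethyl alcohol, orally at 26 mg/kg body mass 3 times per week, and vehicle mice received the oil glyceryl trioctanoate alone. The 21 d groups had 10 treatments (5 treated and 6 vehicle mice) and the 90 d groups had 40 (6 treated and 6 vehicle mice), with livers taken 24 h after the last treatment, so that a response that had faded by then could not be seen. The study left out 1 further treated 21 d array for hybridisation artefacts, and it was not analysed here.

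The aryl hydrocarbon receptor is a ligand-activated transcription factor that waits in the cytosol bound to chaperones. Many planar aromatic compounds bind it, among them dioxins and indoles formed from dietary glucosinolates. The bound receptor moves to the nucleus, pairs with Arnt and binds DNA elements with the core letters GCGTG. In liver it is best known for inducing the Cyp1 monooxygenases, of which Cyp1a1 is nearly silent without a ligand and Cyp1a2 is constitutive in hepatocytes. It also induces Ahrr and Tiparp, both of which restrain the receptor in turn.

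The promoter windows of 4 target genes are shown because the receptor's binding core lies in some of them and not in others. Each runs from 250 bases before to 50 bases after the RefSeq gene start in GRCm38.p6 and is written along the gene's strand in lower case, with GCGTG, or CACGC where the core lies on the opposite strand, in capitals. The Cyp1a1 window (chr9:57697363-57697662, plus strand) holds 1 core. The Cyp1a2 window (chr9:57683606-57683905, minus strand) holds 0; Cyp1a1 and Cyp1a2 are neighbours with 0 protein-coding genes between them in that assembly. The Ahrr window (chr13:74292282-74292581, minus strand) holds 3 cores and the Tiparp window (chr3:65528197-65528496, plus strand) holds 1.
Cyp1a1: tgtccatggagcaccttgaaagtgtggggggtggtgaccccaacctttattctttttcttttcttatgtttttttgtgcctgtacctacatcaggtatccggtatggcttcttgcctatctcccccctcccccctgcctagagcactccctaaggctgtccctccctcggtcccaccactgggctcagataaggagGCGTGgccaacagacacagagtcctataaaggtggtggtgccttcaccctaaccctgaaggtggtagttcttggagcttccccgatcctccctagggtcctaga
Cyp1a2: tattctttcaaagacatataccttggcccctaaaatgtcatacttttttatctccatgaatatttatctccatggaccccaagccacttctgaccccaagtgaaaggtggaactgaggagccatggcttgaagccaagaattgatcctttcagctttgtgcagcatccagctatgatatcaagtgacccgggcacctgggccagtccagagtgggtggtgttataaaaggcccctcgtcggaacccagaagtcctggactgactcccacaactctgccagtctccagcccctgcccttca
Ahrr: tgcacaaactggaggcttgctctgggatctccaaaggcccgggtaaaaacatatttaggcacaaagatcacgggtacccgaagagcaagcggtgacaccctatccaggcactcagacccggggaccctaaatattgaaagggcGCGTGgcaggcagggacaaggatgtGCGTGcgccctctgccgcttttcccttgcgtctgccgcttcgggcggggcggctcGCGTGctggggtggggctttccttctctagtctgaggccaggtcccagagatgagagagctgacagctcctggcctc
Tiparp: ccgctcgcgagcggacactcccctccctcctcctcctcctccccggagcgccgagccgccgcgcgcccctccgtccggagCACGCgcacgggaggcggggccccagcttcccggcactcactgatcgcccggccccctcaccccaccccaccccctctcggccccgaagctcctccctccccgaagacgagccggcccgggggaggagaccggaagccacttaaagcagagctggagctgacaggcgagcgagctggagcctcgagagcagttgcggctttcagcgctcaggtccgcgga

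Of the 7 genes, 5 had a window in the promoter table used here, and 4 of these 5 held the core on either strand, the fourth being Cyp1b1 with 1 core on the opposite strand. Over all 32851 windows of 300 bases, 32.4% held at least 1 core and 3.91% held 3 or more, as that of Ahrr did. A match of letters is a description of the window and not of binding. Cores outside these windows were not counted, so the counts do not tell which genes the receptor can control.

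The livers differed in ways that bear on the values below. Hepatocyte markers averaged 14.07 to 14.34 on the log2 scale over 6 measured genes in every liver, and 0 of them passed in any comparison. The Gapdh control is read at both ends of its transcript, and the excess of the 3' over the 5' signal grows as RNA or labelled product shortens. At 21 d this Gapdh difference averaged 1.00 (SD 0.51, n = 5) with treatment and 0.33 (SD 0.13, n = 6) with vehicle (difference 0.67, 2-sided exact permutation p = 0.0216). It was over 0.9 in treated 21 d replicates 1, 3, 4 and 5 and in treated 90 d replicate 6. Treated 21 d replicate 2 stood apart: its Gapdh difference was 0.14, its mean over 8 Kupffer cell markers was 11.37 against 8.37 to 8.81 in the other 4 livers of its group, and its signal of the acute phase gene Saa1 was 14.83 against 10.75 to 11.87. All 8 Kupffer markers were higher in it than in each of those livers. In whole liver, fewer cells of a type and less RNA per cell cannot be told apart.

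None of the 7 receptor genes passed in treated against vehicle livers at either time. At 21 d, 0 of 7 passed (limma, Benjamini-Hochberg adjusted p under 0.05 over all probe sets), where 1.17% of all genes did. An unadjusted p under 0.05 was found for 0 of 7, and for 7110 of the 45037 probe sets tested. The counts at 90 d were again 0 of 7 and 0 of 7, where 0.748% of all genes passed and 4589 of 45037 probe sets had an unadjusted p under 0.05. The members' median log2 difference was -0.09 at 21 d (range -0.16 to 0.17) and 0.00 at 90 d (range -0.13 to 0.24), next to medians of -0.02 and 0.02 over all genes. The upper end of the 95% interval lay under 1.5-fold for all 7 genes at both times, the highest being 1.36-fold for Cyp1a2 at 21 d and 1.46-fold for Cyp1b1 at 90 d. Treated and vehicle livers overlapped in each of the 7 genes at both times, where 2.81% of all genes at 21 d and 1.35% at 90 d did not overlap. In this fit of all 23 arrays, a rise of 1.5-fold in the array signal of any of the 7 genes therefore lies outside the interval. A smaller rise may lie within it. The bound says little on the transcripts of Ahrr and Aldh3a1, which were under the array median on all 23 arrays. Cyp1a1 and Cyp1b1 were also dim, with means of 6.04 and 5.81 next to array medians of 5.53 to 5.61. Cyp1b1 was above the array median on 19 of 23 arrays. For Cyp1a1 and Cyp1b1 too, the bound is on the array signal, and a change in the transcript may be understated. It also depends on the arrays kept: without those with a Gapdh difference over 0.9, which leaves 1 treated 21 d array, Cyp1b1 at 21 d had 0.395.

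**Figure D1:**
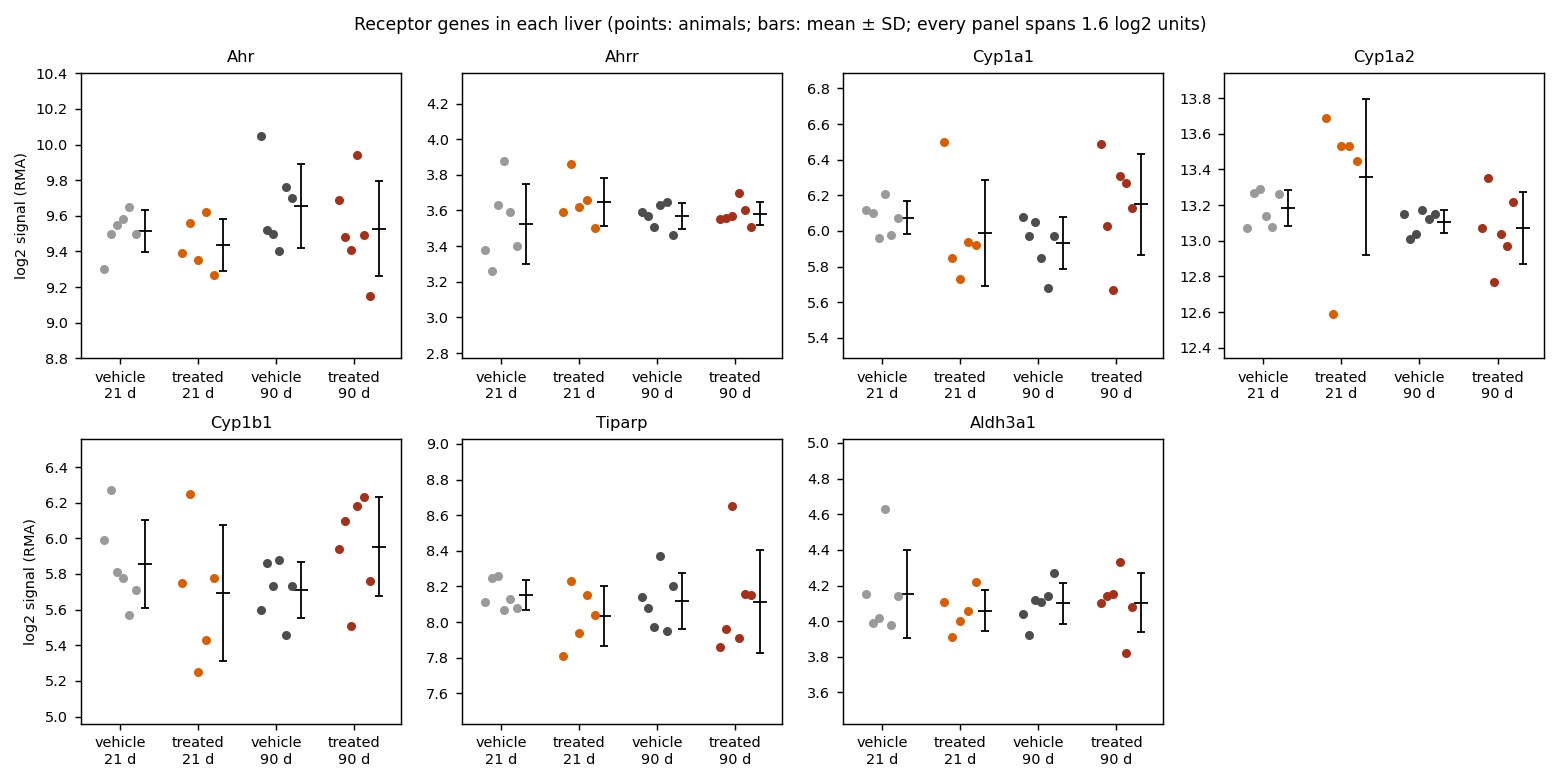
Log2 signal of the 7 receptor genes (vertical axis; every panel spans the same height) in each liver, by group along the horizontal axis; each point is 1 animal and the bar beside each group is its mean ± SD (5 livers in treated 21 d, 6 in each other group). The groups overlap in every panel, and treated 21 d replicate 2 is the low Cyp1a2 point at 12.59.

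Cyp1a1 (probe set 1422217_a_at), the monooxygenase most often read as a sign of receptor activation, passed at neither time. Its log2 signal ranged from 5.96 to 6.21 (median 6.09) in the 6 vehicle livers at 21 d and was 6.50, 5.85, 5.73, 5.94 and 5.92 in the 5 treated livers. Treated replicate 1 was thus higher than every vehicle liver and the other 4 treated livers were lower than every vehicle liver. The difference was -0.09 ± 0.13 (SE; 0.788 to 1.13-fold, 95% interval; limma adjusted p = 0.811). It was -0.21 without treated 21 d replicate 1 and -0.02 without replicate 3 (limma adjusted p = 0.412 and 0.965), the ends of its range over the fits without 1 array. At 90 d the vehicle livers ranged from 5.68 to 6.08 (median 5.97) and the treated livers from 5.67 to 6.49 (median 6.20). Of the treated livers, 4 were higher than all 6 vehicle livers (6.49, 6.31, 6.27 and 6.13), replicate 2 at 6.03 lay within the vehicle range and replicate 3 was the lowest. The difference was 0.22 ± 0.12 (SE; 0.979 to 1.38-fold; unadjusted p = 0.0827, limma adjusted p = 0.569).

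Cyp1a2 (1450715_at), which oxidises caffeine and aromatic amines, was among the brightest probe sets, with a mean of 13.17 over 23 arrays. The vehicle livers at 21 d ranged from 13.07 to 13.29 (median 13.20), and the treated livers had 13.69, 12.59, 13.53, 13.53 and 13.45. The 4 treated livers with a Gapdh difference over 0.9 were all higher than the 6 vehicle livers, and replicate 2, with the high Kupffer and Saa1 signals, was lower than all of them. Over the 5 treated livers the difference was 0.17 ± 0.13 (SE; 0.931 to 1.36-fold, limma adjusted p = 0.585). Without treated 21 d replicate 2 it was 0.37 ± 0.09 (SE, limma adjusted p = 0.0182), in a fit where 5.47% of all genes passed. With the Gapdh value added as a covariate it was -0.18 (limma adjusted p = 0.760), and without the 5 arrays over 0.9, which leaves replicate 2 alone in its group and assumes that it varies like the others, it was -0.60 (limma adjusted p = 0.0568). The direction at 21 d thus turned with the arrays kept, and the part of RNA shortening in it was not tested. At 90 d the vehicle livers lay between 13.01 and 13.17 and the treated livers between 12.77 and 13.35, with 2 treated livers above the vehicle range, 2 below it and 2 inside. The difference was -0.04 ± 0.13 (SE; 0.812 to 1.17-fold, limma adjusted p = 0.952).

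Cyp1a2 was lower in livers with more signal of Kupffer cell markers, the resident macrophages of the liver, and of Saa1. Both relations passed by Pearson's r and not by Spearman's rho. In each of the 4 groups the liver with the lowest Cyp1a2 was the one with the highest mean Kupffer marker signal and the highest Saa1. In vehicle 21 d replicate 1, Cyp1a2 was 13.07 beside a Kupffer mean of 10.94 and a Saa1 signal of 14.12. In vehicle 90 d replicate 2 the values were 13.01, 10.10 and 14.06, and in treated 90 d replicate 3 they were 12.77, 10.31 and 14.56. Over the 23 livers, as deviations from the group means, Cyp1a2 and the Kupffer mean had Pearson's r = -0.81 (permutation within groups p = 0.00037, Benjamini-Hochberg adjusted p = 0.0155 over 42 relations) and Spearman's rho = -0.71 (permutation p = 0.00185, adjusted p = 0.0777). Without the 2 livers farthest from the median Kupffer mean, r was -0.66. With Saa1, Cyp1a2 had r = -0.65 (permutation p = 0.00208, adjusted p = 0.0437) and rho = -0.54 (permutation p = 0.0121, adjusted p = 0.127), and r = -0.56 without the 2 farthest livers. These 42 relations, of the 7 genes among themselves and with the Gapdh difference, Saa1 and the Kupffer mean, were chosen after values were seen. Cyp1a2 with the Gapdh difference had r = 0.74 (permutation p = 0.0212, adjusted p = 0.127) and rho = 0.66 (permutation p = 0.00577, adjusted p = 0.121), and r = 0.53 without the 2 farthest livers. Among the 21 pairs of receptor genes none passed; Cyp1a1 and Cyp1a2 had r = 0.29 (permutation p = 0.327, adjusted p = 0.579) and rho = -0.05 (permutation p = 0.819, adjusted p = 0.967).

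**Figure D2:**
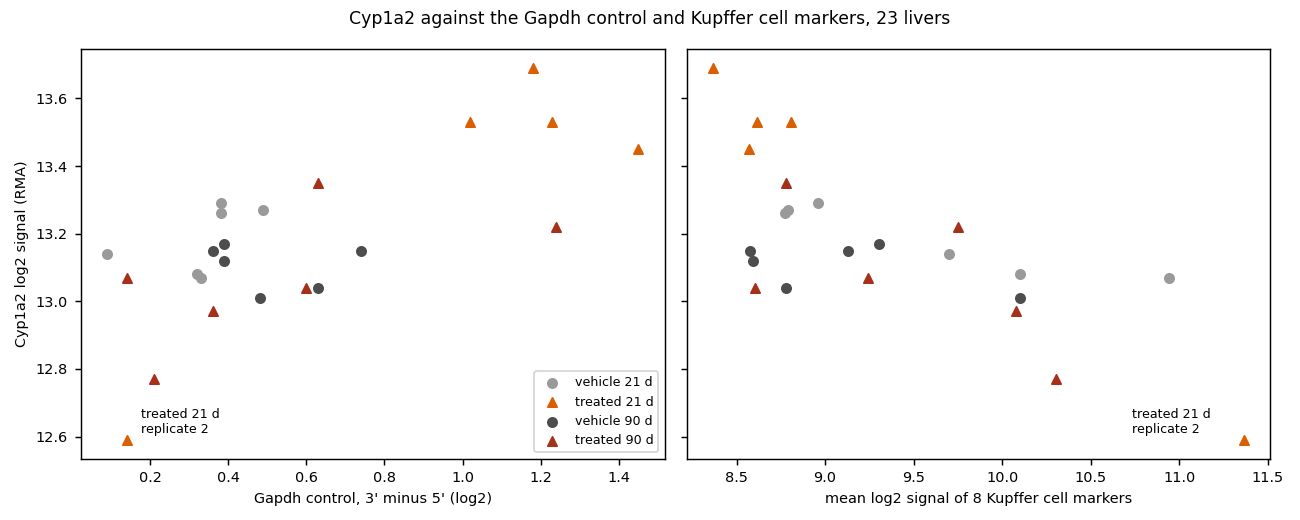
Cyp1a2 log2 signal (vertical axis) in the 23 livers against the Gapdh 3' minus 5' difference in log2 units (left) and the mean log2 signal of 8 Kupffer cell markers (right); circles are vehicle and triangles treated livers. Treated 21 d replicate 2 has the lowest Cyp1a2 signal (12.59), a Gapdh difference of 0.14 and the highest Kupffer mean (11.37).

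Cyp1b1 (1416612_at), a monooxygenase best known from tissues outside the liver, was lower in mean at 21 d and higher at 90 d, and passed at neither. Its log2 signal ranged from 5.57 to 6.27 (median 5.80) in vehicle livers at 21 d and was 5.75, 6.25, 5.25, 5.43 and 5.78 in treated livers. Treated replicates 3 and 4 were lower than all vehicle livers, and the other 3 were within their range (-0.16 ± 0.15 SE; 0.718 to 1.11-fold, limma adjusted p = 0.669). Over the fits without 1 array this difference ran from -0.30 without treated 21 d replicate 2 to -0.05 without replicate 3 (limma adjusted p = 0.232 and 0.918). At 90 d the vehicle livers ranged from 5.46 to 5.88 (median 5.73) and the treated livers from 5.51 to 6.23 (median 6.02). Treated replicates 1, 2, 4 and 5 were higher than every vehicle liver, and replicates 3 and 6 lay within the vehicle range (0.24 ± 0.15 SE; 0.961 to 1.46-fold, limma adjusted p = 0.607). The 2 effects differed by 0.41 ± 0.21 (SE), the most of the 7 genes, and this difference did not pass either (limma adjusted p = 0.545). Stellate cell markers, 9 genes, had 0 passing at both times, and their mean ranged from 8.51 to 8.98 over all livers. The other Cyp1b1 probe sets, 1432081_at and 1416613_at, were under the array median on all 23 arrays. Their log2 differences were -0.15 and -0.00 at 21 d and -0.11 and 0.17 at 90 d, where the representative had -0.16 and 0.24, so that the sign of 1432081_at at 90 d alone was opposite to it. Among the 3 probe sets the correlations over 23 arrays lay between -0.05 and 0.05.

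**Figure D3:**
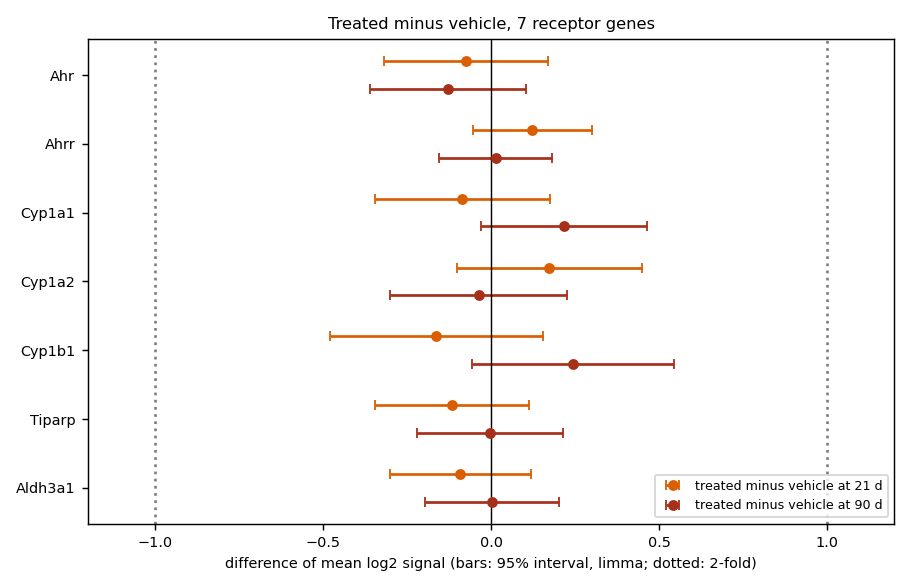
Difference of mean log2 signal, treated minus vehicle (horizontal axis), for the 7 receptor genes at 21 d and 90 d; points are estimates, bars are 95% intervals of the limma fit, and dotted lines mark a 2-fold change. Every bar crosses 0, and the longest reach upward is that of Cyp1b1 at 90 d, to 1.46-fold.

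Tiparp, a mono-ADP-ribosyltransferase that is induced by the receptor and restrains it, gave different answers from its probe sets at 21 d. The representative, 1426721_s_at, ranged from 8.07 to 8.26 (median 8.12) in vehicle livers and was 7.81, 8.23, 7.94, 8.15 and 8.04 in treated livers, with treated replicates 2 and 4 inside the vehicle range. Its difference was -0.12 ± 0.11 (SE; 0.787 to 1.08-fold, limma adjusted p = 0.677). The dimmer probe set 1452161_at ranged from 6.34 to 6.65 (median 6.47) in vehicle livers and was 5.71, 6.31, 5.89, 5.86 and 5.89 in treated livers. All 5 treated livers were lower than all 6 vehicle livers, which was so in this direction for 1.12% of all probe sets. This probe set fell by 0.55 on the log2 scale (SE 0.13; 0.569 to 0.824-fold, limma adjusted p = 0.0417). It was the only 1 of the 12 probe sets to pass at 21 d, where 0.957% of all probe sets passed and 0.551% were lower. Of the 12, 2 had an unadjusted p under 0.05, as did 7110 of all 45037 probe sets. At 90 d 0 of 12 passed, where 0.502% of all did, and again 2 had an unadjusted p under 0.05, as did 4589 of all 45037 probe sets.

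The third probe set, 1452160_at, had 6.99 to 7.33 (median 7.14) in vehicle and 6.33, 7.23, 6.77, 6.73 and 6.41 in treated livers at 21 d. Replicate 2 lay within the vehicle range and the other 4 treated livers below it, and the difference of -0.46 ± 0.17 (SE) did not pass (limma adjusted p = 0.181). Both dimmer probe sets followed the Gapdh difference as deviations from group means, with r = -0.63 for 1452160_at and -0.64 for 1452161_at over 23 arrays, given here as a description. With the Gapdh value added as a covariate, 1452161_at had -0.25 and 1452160_at -0.06 (limma adjusted p = 0.647 and 0.969). Without the 5 arrays over 0.9, which leaves 1 treated 21 d array, they had -0.17 and 0.08 (limma adjusted p = 0.883 and 0.971). Leaving out single arrays ended the call of 1452161_at in 12 of 23 fits: those without treated 21 d replicates 1, 3, 4 or 5, vehicle 21 d replicates 2 to 6, or vehicle 90 d replicates 2, 3 or 6 (limma adjusted p up to 0.112). Without treated 21 d replicate 2, 1452160_at had -0.59 and passed (limma adjusted p = 0.0419).

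After 40 treatments the representative Tiparp probe set ranged from 7.95 to 8.37 in vehicle and from 7.86 to 8.65 in treated livers, with treated replicate 3 the highest (-0.00 ± 0.11 SE; 0.857 to 1.16-fold, limma adjusted p = 0.996). The log2 differences of 1452160_at and 1452161_at were -0.23 and -0.21 (limma adjusted p = 0.673 and 0.608). In both, treated replicate 3 was again the highest liver of all, at 7.78 and 6.69. The correlation of the 2 dimmer probe sets over 23 arrays was 0.86, and their correlations with the representative were 0.68 and 0.45.

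**Figure D4:**
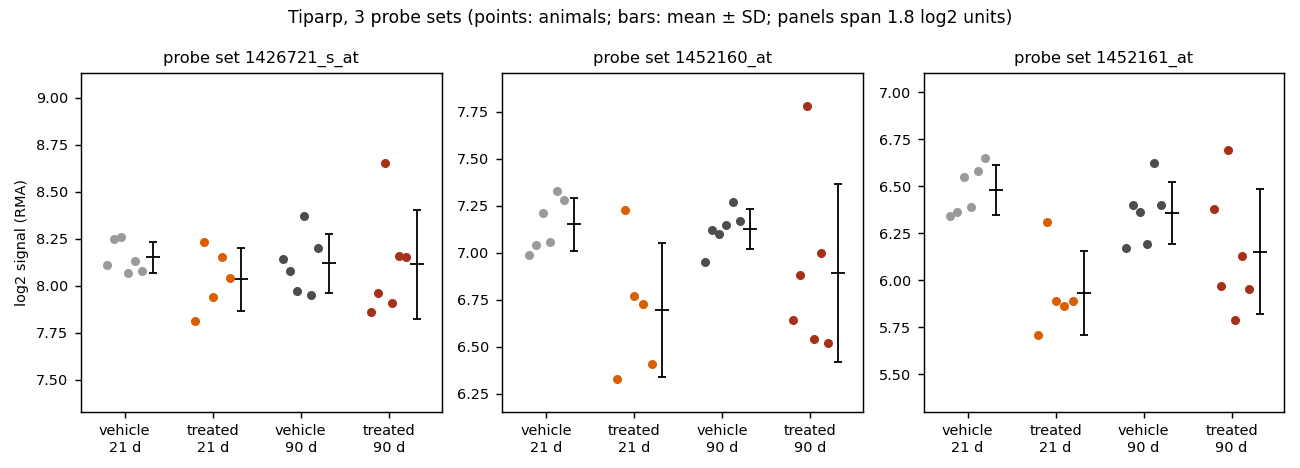
Log2 signal of the 3 Tiparp probe sets (vertical axis; every panel spans the same height) in each liver, by group along the horizontal axis; each point is 1 animal and the bar is the group's mean ± SD. At 21 d the treated livers lie within or under the vehicle range for 1426721_s_at and all below it for 1452161_at.

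Ahr itself, the receptor (1422631_at), was bright in every liver, with no change that passed. At 21 d it ranged from 9.30 to 9.65 (median 9.53) in vehicle livers and was 9.39, 9.56, 9.35, 9.62 and 9.27 in treated livers. Only treated replicate 5 lay outside the vehicle range, just below it (-0.08 ± 0.12 SE; 0.802 to 1.12-fold, limma adjusted p = 0.825). At 90 d it ranged from 9.40 to 10.05 (median 9.61) in vehicle and from 9.15 to 9.94 (median 9.49) in treated livers, so that the groups overlapped widely (-0.13 ± 0.11 SE; 0.779 to 1.07-fold, limma adjusted p = 0.753). The second probe set, 1450695_at, had 0.03 at 21 d and -0.19 at 90 d (unadjusted p = 0.0404, limma adjusted p = 0.458). The correlation of the 2 probe sets over 23 arrays was -0.16.

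Ahrr (1420796_at), the repressor that competes with the receptor for Arnt, lay under the array median on all 23 arrays, so its values carry little signal. It ranged from 3.26 to 3.88 in vehicle and from 3.50 to 3.86 in treated livers at 21 d, all treated livers inside the vehicle range (0.12 ± 0.09 SE; 0.964 to 1.23-fold, limma adjusted p = 0.531). At 90 d the ranges were 3.46 to 3.65 and 3.51 to 3.70, and treated replicate 4 alone was above the vehicle range (0.01 ± 0.08 SE; 0.898 to 1.13-fold, limma adjusted p = 0.976).

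Aldh3a1 (1418752_at), an aldehyde dehydrogenase that the receptor induces in rodent liver under strong ligands, was likewise under the array median on all 23 arrays. At 21 d it ranged from 3.98 to 4.63 in vehicle and from 3.91 to 4.22 in treated livers, and only treated replicate 2 lay outside the vehicle range, below it (-0.09 ± 0.10 SE; 0.812 to 1.08-fold, limma adjusted p = 0.732). The ranges at 90 d were 3.92 to 4.27 and 3.82 to 4.33, which overlap (0.00 ± 0.10 SE; 0.873 to 1.15-fold, limma adjusted p = 0.995). A low RMA value is not a measured absence, and a change in a transcript near the floor of the array would be understated.

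None of the 7 genes passed in the comparisons between times. Time, age and the number of treatments change together between the 21 d and 90 d groups and cannot be told apart. The difference of the 90 d and 21 d effects passed in 0 of 7, with a range from -0.21 for Cyp1a2 to 0.41 for Cyp1b1, and 0% of all genes passed in that contrast. Vehicle livers at 90 d against 21 d gave 0 of 7 passing (range -0.15 to 0.14), where 0.011% of all genes passed. In both, 0 of 7 had an unadjusted p under 0.05, where 4320 and 2686 of all 45037 probe sets did. Treated livers at 90 d against 21 d gave 0 of 7 passing, where 0.0934% of all genes did. An unadjusted p under 0.05 was found for 1 of 7 genes, and for 6044 of all 45037 probe sets. The 1 gene was Cyp1a2 (-0.29 ± 0.13 SE, unadjusted p = 0.0414, limma adjusted p = 0.349). Without treated 21 d replicate 2 it had -0.48 and passed (limma adjusted p = 0.00629), in a fit where 4.2% of all genes passed.

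In order of group means, Cyp1a1 was highest in treated 90 d livers (6.15 ± 0.28, SD, n = 6), then vehicle 21 d (6.07 ± 0.09, n = 6), treated 21 d (5.99 ± 0.30, n = 5) and vehicle 90 d (5.93 ± 0.15, n = 6). Cyp1a2 was highest in treated 21 d livers (13.36 ± 0.44), then vehicle 21 d (13.19 ± 0.10), vehicle 90 d (13.11 ± 0.07) and treated 90 d (13.07 ± 0.20). In both genes each step between neighbours in the order was smaller than the larger of the 2 SDs. The spread between livers was larger in treated than in vehicle livers for 5 of 7 receptor genes at 21 d and 6 of 7 at 90 d, next to 65.7% and 72.0% of all genes.

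No measured partner or chaperone of the receptor passed. Of 9 listed genes 6 were measured, and the others were not analysed here. At both times 0 of 6 passed. At 21 d and 90 d, 1 and 0 had an unadjusted p under 0.05, where 7110 and 4589 of all 45037 probe sets did. The largest differences at 21 d were those of Cul4b, a scaffold of the ubiquitin ligase in which the receptor takes part (-0.28 ± 0.10 SE, limma adjusted p = 0.15), the chaperone Hsp90aa1 (0.17, adjusted p = 0.450) and the dimer partner Arnt (0.14, adjusted p = 0.633). At 90 d they were those of Hsp90aa1 (-0.18, limma adjusted p = 0.562), Cul4b (-0.15, adjusted p = 0.632) and the coactivator Ncoa2 (-0.11, adjusted p = 0.630).

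Nqo1 rose at 90 d, the 1 of 10 measured wider targets of the receptor to pass in treated against vehicle livers. Of 18 listed genes 10 were measured, and the others were not analysed here. At 21 d 0 of 10 passed, 1 had an unadjusted p under 0.05 (as did 7110 of all 45037 probe sets), and the median log2 difference was 0.04. The largest differences were those of Fgf21, a liver hormone of fasting (-0.40 ± 0.12 SE, limma adjusted p = 0.0873, and -0.49 with adjusted p = 0.0355 without vehicle 21 d replicate 1), Xdh, xanthine dehydrogenase (0.21, adjusted p = 0.456), and Ugdh, which makes UDP-glucuronate (0.17, adjusted p = 0.497). At 90 d 1 of 10 rose and 0 fell, where 0.5% of all genes were higher, and the median was 0.12. An unadjusted p under 0.05 was found there for 3 of 10 (Nqo1, Ugdh and Xdh, all higher), and for 4589 of all 45037 probe sets. After Nqo1 the largest values at 90 d were those of Ugdh (0.33, limma adjusted p = 0.226), Tnfaip2 (-0.30, adjusted p = 0.71) and Xdh (0.27, adjusted p = 0.448).

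Nqo1 encodes a quinone reductase that both the aryl hydrocarbon receptor and NRF2, the regulator of the oxidative stress response, are known to induce. At 90 d its log2 signal was 6.70 to 7.0 in vehicle livers and 7.86, 7.70, 7.28, 7.65, 7.86 and 6.83 in treated livers. Treated replicates 1 to 5 were higher than every vehicle liver, while replicate 6, the 90 d array with a Gapdh difference over 0.9, lay within the vehicle range. Nqo1 rose by 0.63 ± 0.13 (SE), or 1.54-fold (1.28 to 1.86-fold, limma adjusted p = 0.0241). At 21 d it was 6.78 to 7.14 in vehicle and 6.86 to 7.23 in treated livers, which overlap (0.13 ± 0.14 SE, limma adjusted p = 0.703). The difference of the 2 effects, 0.49 ± 0.19 (SE), did not pass (limma adjusted p = 0.492). Without treated 90 d replicate 6 the 90 d effect was 0.77 (limma adjusted p = 0.000143). The call ended in 8 of 23 fits that left out 1 array, namely treated 90 d replicates 1, 2, 4 or 5 or vehicle 90 d replicates 1, 3, 5 or 6 (limma adjusted p up to 0.0764), and with only the 2 groups compared (adjusted p = 0.0962).

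**Figure D5:**
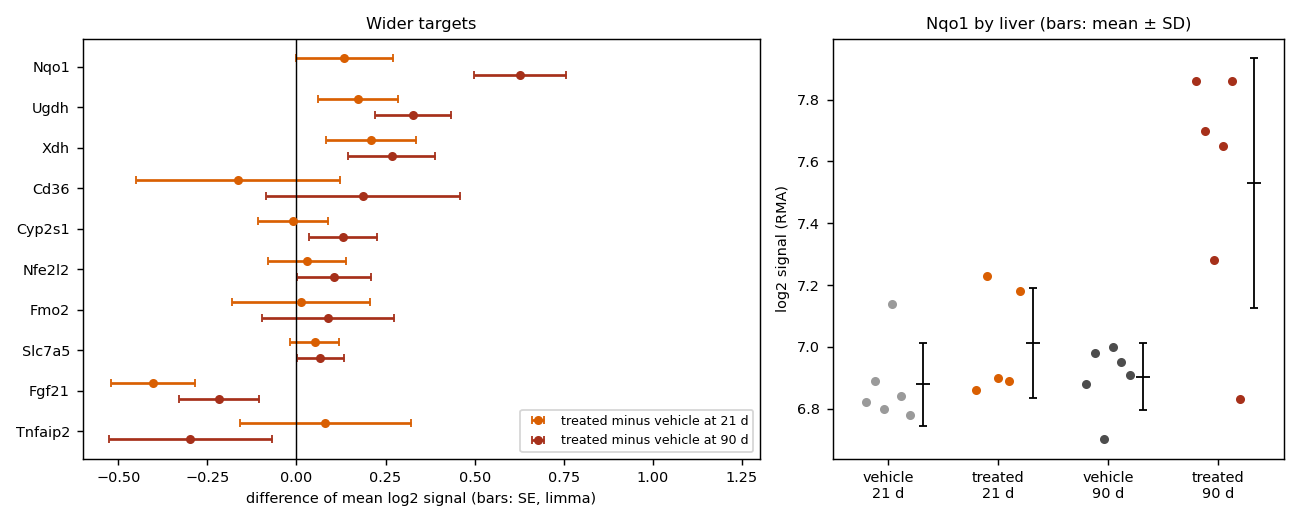
Left, difference of mean log2 signal, treated minus vehicle (horizontal axis), for 10 wider targets of the receptor at 21 d and 90 d, with bars of ± 1 SE from the limma fit; right, Nqo1 log2 signal (vertical axis) in each liver by group, with the group's mean ± SD. Nqo1 at 90 d has a difference of 0.63, and treated replicate 6 is the single 90 d treated liver within the vehicle range.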

How the data were processed

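Liver RNA of 23 mice was measured on Affymetrix mouse GeneChips, with 1 chip for each animal per the labels. The deposited log2 values, from 2.23 to 15.41, were made by the authors with Partek and RMA per the submitters' processing notes. Versions, settings and the genome build were not given in the sources used here, and log2 was inferred from the values' range. RMA forces arrays to a common distribution (medians 5.53 to 5.61), which would hide a shift of all genes together. Precision is limited by the number of arrays.

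Of 45101 probe sets, 64 controls were left out. The platform annotation paired 34945 probe sets with 1 gene, 932 with several and 9160 with none. Gene identifiers were matched to a RefSeq table of GRCm38.p6, which also gave the promoter windows. Group means were fitted in limma 3.58.1 (lmFit, eBayes; R 4.3.3) over all 23 arrays (19 residual degrees of freedom), and p-values were adjusted over 45037 probe sets with the Benjamini-Hochberg method (threshold 0.05). The fit was checked on simulated data. A probe set of a Cyp1 or other family gene can also bind a related transcript.

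The 7 genes were all named, as were passing genes of the lists of partners and of wider targets, or the 3 of largest change at each time, and the 3 genes most correlated with each. Members, lists and rules were chosen with earlier results of these data known. Treatment effects were also computed with another probe set summary, filter, normalization, variance prior, array weighting, replicate block or Gapdh covariate, without arrays over 0.9 and without each array.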

Additional observations from a re-analysis of the deposited data

Results flagged for a closer look

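In 5 of the 48 groups of values of the 12 probe sets, 1 liver lay far from the rest of its group, by Dixon's ratio of its gap to the nearest liver over the group's range. Chance marks about 1 group in 20. Of these 5 values, 4 came from treated 21 d livers, 2 of them from replicate 4. Cyp1a1 was 6.50 in treated 21 d replicate 1, with the nearest liver at 5.94. Cyp1a2 was 12.59 in treated 21 d replicate 2, with the nearest at 13.45. The dim Cyp1b1 probe set 1432081_at was 4.49 in treated 21 d replicate 4, with the nearest at 4.32, and the dim probe set 1416613_at was 3.01 in the same liver, with the nearest at 3.16. Aldh3a1 was 4.63 in vehicle 21 d replicate 4, with the nearest at 4.15.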

How the results depend on the processing

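The count of receptor genes that passed stayed at 0 of 7 in treated against vehicle livers at 90 d, in the difference of the effects and in vehicle livers between times under every alternative run. At 21 d, and in treated livers between times, it ranged from 0 to 1 over the fits that left out 1 array, the 1 being Cyp1a2 without treated 21 d replicate 2, and was 0 otherwise. The filter at a mean of 6 dropped Ahrr, Cyp1b1 and Aldh3a1.

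With the Gapdh covariate, log2 differences turned for Ahr (0.0379) and Cyp1a2 (-0.18) at 21 d, Tiparp at 90 d (0.000744) and Cyp1a2 in the difference of the effects (0.13). Without the 5 arrays over 0.9 they turned at 21 d for Ahr (0.0467), Cyp1a2 (-0.60), Cyp1b1 (0.40) and Tiparp (0.08). In the difference of the effects they turned for Cyp1a2 (0.53), Cyp1b1 (-0.11) and Tiparp (-0.0903), and between treated groups for Cyp1a2 (0.45), Cyp1b1 (-0.26) and Tiparp (-0.12). The mean of all probe sets turned Ahr between treated groups (-0.0535), and centring arrays on their median turned Aldh3a1 at 90 d (-0.00333). The cause was not tested. Over the fits without 1 array, signs turned for Aldh3a1 at 21 d (-0.13 to 0.004), and at 90 d for Ahrr (-0.0103 to 0.0297), Cyp1a2 (-0.0927 to 0.0233), Tiparp (-0.11 to 0.0477) and Aldh3a1 (-0.042 to 0.06). They turned in the difference of the effects for Ahr (-0.14 to 0.026) and Aldh3a1 (-0.000667 to 0.15), in vehicle livers between times for Ahrr (-0.00767 to 0.12), Tiparp (-0.082 to 0.002) and Aldh3a1 (-0.086 to 0.044), and in treated livers between times for Tiparp (-0.026 to 0.13) and Aldh3a1 (-0.002 to 0.10).

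The labels do not say that replicate numbers pair the animals. Deviations of 33 same-numbered pairs of arrays had a median correlation of -0.16 (range -0.36 to 0.35). In 165 pairs with different numbers the median was 0.04 (range -0.40 to 0.55). These correlations cannot settle whether the numbers pair animals. With the replicate block, 91 probe sets passed at 21 d in place of 431 and 148 in place of 226 at 90 d, and Tiparp 1452161_at had -0.55 (limma adjusted p = 0.0763). Over all probe sets, 813 passed at 21 d on those with a mean of at least 6, 1426 with array weights, 207 with only the 2 groups compared, 123 with the Gapdh covariate and 2265 without treated 21 d replicate 2; at 90 d the Gapdh covariate gave 504, the fit without arrays over 0.9 gave 761, array weights gave 463 and the 2 groups alone gave 149. Cd36, a wider target, passed at 21 d only without arrays over 0.9 (1.45, limma adjusted p = 0.0336), which leaves 1 treated array. Dim probe sets of Ahrr, Aldh3a1 and Cyp1b1 limit what their values can show.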

Other observations

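The genes whose signal was most like that of each receptor gene over the 23 arrays were found among 10843 or 10844 genes with a mean log2 signal of at least 6, as a description without a test, since the arrays share groups and differ in RNA quality. For Cyp1a2 they were Asic5 (Pearson's r = 0.90), 2310061I04Rik (0.88) and Crebl2 (0.87). Ahr was closest to the albumin gene Alb (0.74), Irs1, the insulin receptor substrate (0.70), and Rbm25 (0.67). Cyp1b1 was closest to Wwtr1, a Hippo pathway coactivator (0.75), Bnip5 (0.74) and Gja1, connexin 43 (0.74). For Tiparp they were Fbxl17 (0.78), Clp1 (0.75) and Gdpd3 (0.74), and for Cyp1a1 they were Tnk1 (0.67), Eps15l1 (0.64) and Postn (0.63). The dim genes Aldh3a1 and Ahrr were closest to Krt5 (0.78), Syp (0.76) and Kremen1 (0.72), and to Plekha5 (0.68), Riox2 (0.65) and Napg (0.62).

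Zonation markers, which tell the lobular regions of hepatocytes apart, had 1 of 11 pericentral genes higher at 21 d, Gulo (0.43, limma adjusted p = 0.0136). Of 7 periportal genes 1 was lower, Hsd17b13 (-0.51, limma adjusted p = 0.0304). At 21 d 1.17% of all genes passed, and the part of the shortened RNA of treated 21 d arrays in these 2 calls was not tested. At 90 d 0 passed in either list, where 0.748% of all genes did. Gulo and Hsd17b13 kept their directions there, with 0.28 and -0.44 (limma adjusted p = 0.104 and 0.0620). Cyp1a2 is itself a pericentral gene. Of 12 circadian genes, Cry1 alone passed at 90 d and was lower (-0.52, limma adjusted p = 0.0462), where 0.748% of all genes passed. At 21 d 0 passed. The largest circadian differences at 21 d were those of Per3 (1.05, limma adjusted p = 0.0994), Per2 (0.83, adjusted p = 0.292) and Arntl (-0.73, adjusted p = 0.425). Endothelial and Kupffer cell markers, 8 genes each, had 0 passing at either time. The median log2 difference of the Kupffer markers was -0.42 at 21 d and 0.33 at 90 d, and the size of both depended on single livers. The sign of this median was the same in every fit without 1 array. At 21 d the median was -0.97 without treated replicate 2, where 1 of 8 passed beside 5.47% of all genes, and -0.17 without vehicle replicate 1. At 90 d it was 0.14 without treated replicate 3 and 0.51 without vehicle replicate 2.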
